A study of Mus musculus with 12 samples.

Results

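The genes of glycolysis and of the response to low oxygen were examined in myeloid-derived suppressor cells (MDSCs) of mouse liver tumors. The set was a list of 34 gene symbols, and all 34 were found among the 24346 symbols of the data. It covered 2 glucose carriers, 3 hexokinases, 3 phosphofructokinases, 10 other glycolytic enzymes, 2 lactate dehydrogenases, 2 lactate carriers, 3 regulators of flux, 3 genes of oxygen sensing and 6 effectors of the hypoxia response. RNA-seq was available from 12 libraries, 2 in each of 6 groups. M-MDSCs, the monocytic subset, were sorted as CD11b+ Ly-6Chi Ly-6G- cells, and PMN-MDSCs, the polymorphonuclear subset, as CD11b+ Ly-6Cint Ly-6G+ cells. Both subsets came from tumors grown in the liver after implantation of Hepa 1-6, a mouse hepatoma line, into female C57BL/6J mice aged 6 to 8 weeks, and no engineered allele was named for any group. Mice received vehicle, MS-275 or CXD101, and both drugs are inhibitors of the histone deacetylases HDAC1, HDAC2 and HDAC3. Each drug was given at 5 mg/kg per day for 10 days from day 10, and cells were collected on day 21. This schedule was described for the M-MDSC libraries and was not described separately for the PMN-MDSC libraries. Mice had been selected by their share of MDSCs in blood before treatment, and whether a library came from 1 mouse or from a pool was not stated, so p-values measure the spread between these libraries only.

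Glycolysis splits glucose into pyruvate in a chain of enzymes. Glucose enters through carriers of the GLUT family, hexokinase traps it in the cell, and phosphofructokinase commits it to breakdown. Lactate dehydrogenase turns pyruvate into lactate, which leaves through monocarboxylate carriers. Under low oxygen, the transcription factor HIF-1 is no longer marked for destruction by prolyl hydroxylases and raises the transcription of many of these genes, of the vascular growth factor VEGF and of pyruvate dehydrogenase kinase, which keeps pyruvate out of the mitochondria. Neutrophils are known to rely mainly on glycolysis for energy.

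The values were FPKM, fragments scaled to transcript length and to the number of fragments in the library, so levels could be compared between genes of different length. Summed FPKM ranged from 564078 to 596407 in the M-MDSC libraries and from 656932 to 860841 in the PMN-MDSC libraries, and the depth read from the steps between low values was 0.728 to 1.10 times that of the first vehicle M-MDSC library. Replicate libraries correlated across genes with r of 0.992 to 0.995, which is a description across genes that are not independent. With Eno2, the neuronal enolase, left aside, 33 members were at 1.76 FPKM or more in every library. Differences were tested with limma on log2(FPKM + 1), a scale that understates the change of genes at low levels. A member was called when the p-value adjusted over all genes tested by the Benjamini-Hochberg method was under 0.05 and the fold change was above 1.5, and "rose" and "fell" are used for called members only.

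Markers of cell types moved with the drugs, and in bulk RNA a change in the number of cells of a type and a change in RNA per cell cannot be told apart. In PMN-MDSCs, 8 of 10 neutrophil markers were called higher under each drug, 1 (Mmp9) was called lower with MS-275, and the summed FPKM of the list was 71571 to 97549 with vehicle, 255532 to 279021 with MS-275 and 269827 to 296062 with CXD101. The neutrophil genes S100a8 and S100a9 contributed most of these sums. Alone they held 10.2 to 13.7% of the FPKM with vehicle and 27.3 to 30.9% with a drug in this subset. In M-MDSCs the neutrophil list summed to 11427 to 12081 with vehicle, 22041 to 26020 with MS-275 and 22001 to 23199 with CXD101, with 5 of 10 markers called higher under each drug, 3 lower with MS-275 and 1 lower with CXD101. Macrophage markers were called lower for 5 of 8 genes under MS-275 and for 3 of 8 under CXD101 in M-MDSCs, where their summed FPKM was 512 to 534 with vehicle, 331 to 361 with MS-275 and 450 to 458 with CXD101, and for 6 of 8 genes under each drug in PMN-MDSCs, where it was 712 to 783, 407 to 439.8 and 443 to 459 and where Apoe was called higher with MS-275. Monocyte markers summed to 1587 to 1659.8, 2642 to 2694 and 2304 to 2393 in M-MDSCs and to 641 to 718, 1581 to 1776 and 1523 to 1734 in PMN-MDSCs, sums to which Ly6c2, called higher in all 4 comparisons, contributed most. The monocyte markers Csf1r (-1.28 with MS-275 and -1.07 with CXD101 on the log2 scale) and Cx3cr1 (-0.89 and -0.82) were called lower in PMN-MDSCs. Eosinophil markers summed to 152 to 185 with vehicle and 367 to 402 with a drug in M-MDSCs, with 4 of 7 markers called higher with MS-275 and 5 of 7 with CXD101. In PMN-MDSCs they summed to 139.7 to 149.0 with vehicle, 154.0 to 161.5 with MS-275 and 171.0 to 180.1 with CXD101. There Epx was called lower with both drugs, Ccr3 higher with MS-275 and Ear2 higher with CXD101. Hepatocyte and tumor markers, with Ttr, Serpina1a, Fgb, Ahsg and Apob at 0 in both libraries of all groups, summed to at most 3.39 FPKM, lymphocyte and NK cell markers to at most 3.45 and erythroid markers to at most 1.68. Of 4 listed sorting markers, 3 were among the symbols of the data, Itgam, Ly6c1 and Ly6c2, and Ly6g was not among these 3. The 3 markers summed to 1592 to 1652 FPKM with vehicle and 2312 to 2715 with a drug in M-MDSCs. In PMN-MDSCs the sums were 1336 to 1352 with vehicle and 2306 to 2546 with a drug. Ly6c1 was called higher with MS-275 in M-MDSCs and with both drugs in PMN-MDSCs. The part of these shifts in the results that follow was not tested.

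Carriers, minor isoforms and hypoxia effectors made up most of the called members, and the abundant enzymes of the pathway other than Tpi1 were within 1.5-fold of vehicle. Ldhb and Vegfa rose, and Slc2a1 and Aldoc fell, with both drugs in both subsets. In M-MDSCs, 5 of 33 tested members rose with MS-275 and 5 fell, against 10.1% and 7.32% of all genes tested. With CXD101, 2 rose and 4 fell in this subset, against 5.14% and 3.0% of all genes. In PMN-MDSCs, 7 members rose and 6 fell with MS-275, against 14.6% and 14.2% of all genes, and 7 rose and 5 fell with CXD101, against 11.9% and 9.54%. As percentages of the 33 tested members these counts are 15.2 and 15.2, 6.06 and 12.1, 21.2 and 18.2, and 21.2 and 15.2, and the median log2 fold change of the members lay between -0.16 and 0.01, with that of all genes between -0.06 and -0.02. Both drugs were compared with the same vehicle libraries. In M-MDSCs under MS-275 the split depended on the scaling: it was 5 and 3 after quantile normalization. Across the 4 comparisons, 2 members rose in all 4, 2 fell in all 4, 6 rose in some and 6 fell in some, and 17 were called in none. The shares of all genes with these patterns were not counted, so the pattern counts only describe the members.

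**Figure D1:**
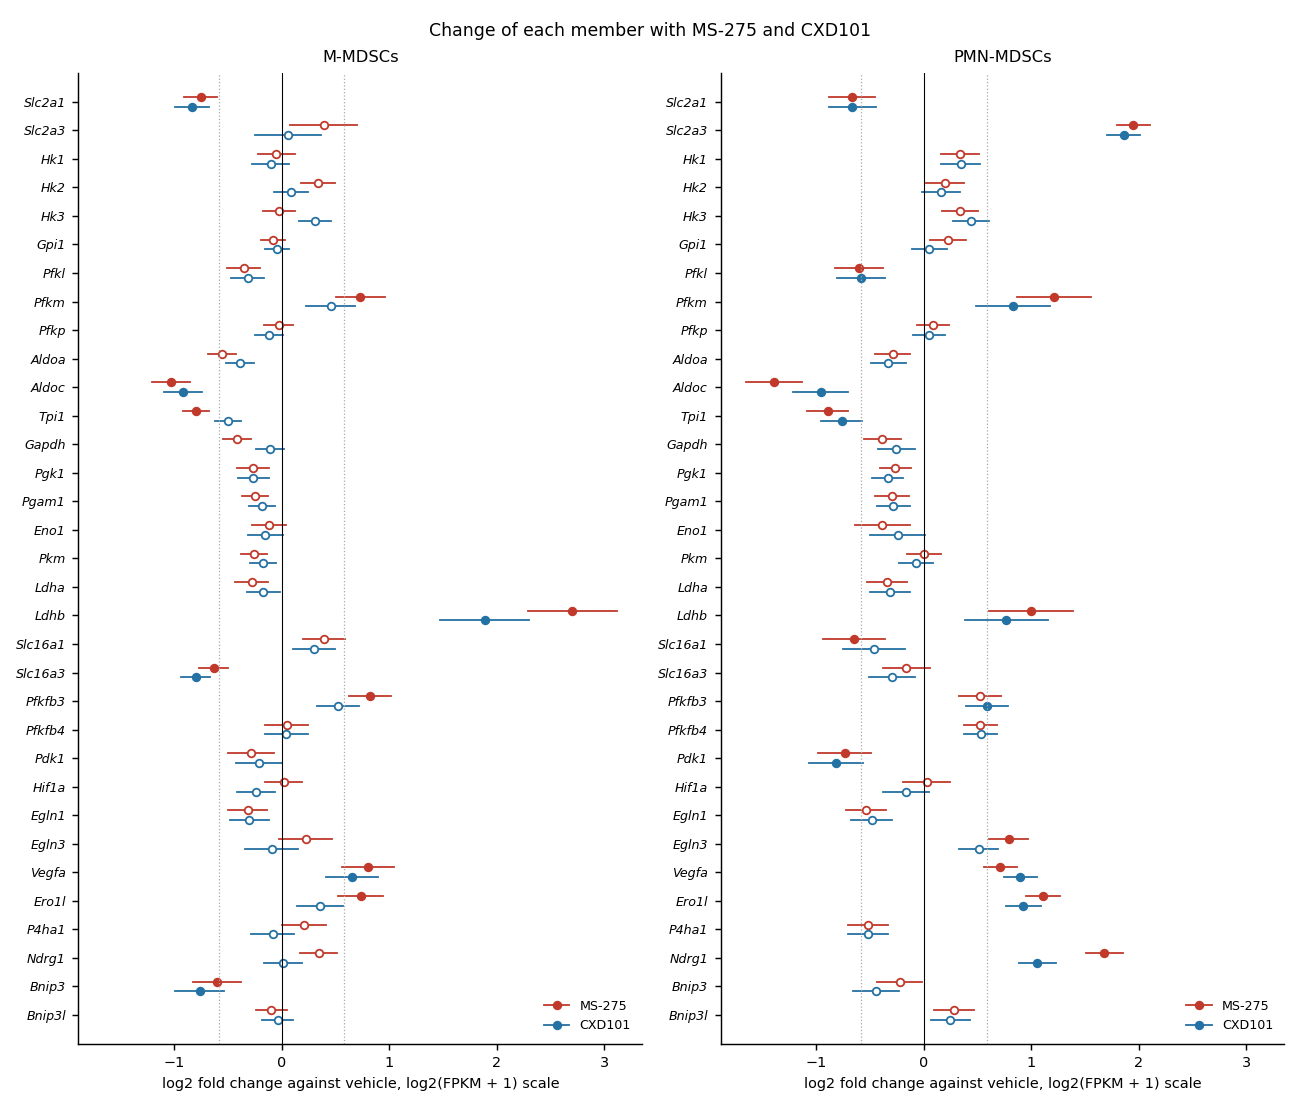
Log2 fold change of 33 members against vehicle with its 95% confidence interval, in M-MDSCs (left) and PMN-MDSCs (right), with MS-275 in red and CXD101 in blue. Filled points were called, open points were not, and dotted lines mark a 1.5-fold change. Ldhb stands farthest to the right in M-MDSCs, at 2.70 with MS-275, and Slc2a3 in PMN-MDSCs, at 1.95.

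Ldhb, Vegfa, Slc2a1 and Aldoc were called in the same direction by both drugs in both subsets, so the start of each is shown. Sequences are from RefSeq on build GRCm38.p6, 5′ to 3′ on the strand of the gene, and cover the 250 bases before the transcription start listed first, less any base that GENCODE release M21 counts as exon. Capitals mark the letters ACGTG or GCGTG, the core of the known HIF binding motif, on either strand, where they read CACGT or CACGC on the strand shown.
Ldhb, chr6:142507958-142508207, minus strand: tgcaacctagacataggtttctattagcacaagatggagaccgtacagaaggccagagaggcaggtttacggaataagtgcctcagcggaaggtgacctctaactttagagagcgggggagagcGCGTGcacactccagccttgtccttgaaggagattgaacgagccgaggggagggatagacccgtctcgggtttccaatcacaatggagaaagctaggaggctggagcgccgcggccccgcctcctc
Vegfa, chr17:46032378-46032627, minus strand: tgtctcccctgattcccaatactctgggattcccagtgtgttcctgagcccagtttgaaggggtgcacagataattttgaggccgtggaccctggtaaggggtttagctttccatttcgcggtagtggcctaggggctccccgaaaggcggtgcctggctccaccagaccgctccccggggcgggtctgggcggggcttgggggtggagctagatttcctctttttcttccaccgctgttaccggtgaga
Slc2a1, chr4:119108495-119108710, plus strand: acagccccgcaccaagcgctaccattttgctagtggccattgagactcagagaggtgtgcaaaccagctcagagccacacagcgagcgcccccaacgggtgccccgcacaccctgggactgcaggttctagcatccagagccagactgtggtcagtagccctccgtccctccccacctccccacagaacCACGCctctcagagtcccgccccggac
Aldoc, chr11:78322823-78322967, plus strand: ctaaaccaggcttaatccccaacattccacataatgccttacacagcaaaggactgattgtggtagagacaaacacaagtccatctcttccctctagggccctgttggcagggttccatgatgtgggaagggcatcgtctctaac
The stretch shown for Ldhb held 1 match, that for Slc2a1 held 1, and those for Vegfa and Aldoc held 0. Over the full 250 bases, exon included, Ldhb held 1, Slc2a1 2, Aldoc 1 and Vegfa 0, and 24 of the 31 members with a window held either motif (77.4%), as did 57.4% of 8928 windows of genes tested in the 12 libraries and 38.6% of all 27025 windows, counted on both strands, with CACGTG counted on each. Of the other members called in the same direction in both subsets, Pfkm held 2 matches over the full 250 bases, Ero1l 3, Pfkfb3 1 and Tpi1 0, and with exon bases left out Pfkm held 2 and the other three 0. Slc2a3, Ndrg1 and Bnip3l had no window. These counts cover only the 250 bases before the start listed first, and bases farther upstream were not searched. Before another listed start of Vegfa, the full 250 bases held 2 matches, exon included. A match is a match of letters, and no binding was measured here.

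In PMN-MDSCs the glucose carriers responded in opposite directions and their order was inverted with either drug, and in M-MDSCs Slc2a1 alone was called. Slc2a1 encodes GLUT1, the carrier found in most cell types, and lies on chromosome 4 from 119108711 to 119137983 on the plus strand (GRCm38). Its FPKM in M-MDSCs was 71.5 and 66.5 with vehicle, 42.0 and 39.1 with MS-275 and 37.7 and 39.0 with CXD101. In PMN-MDSCs it was 92.8 and 81.6 with vehicle, 50.8 and 58.3 with MS-275 and 55.8 and 53.5 with CXD101. Every drug-treated library lay below every vehicle library of its subset. Slc2a1 fell with MS-275 and CXD101 in M-MDSCs (log2 fold change -0.75 ± 0.068 SE and -0.83 ± 0.068, limma adjusted p 7.67e-05 and 0.000173) and in PMN-MDSCs (-0.67 ± 0.093 and -0.66 ± 0.093, adjusted p 0.000688 and 0.00102). In PMN-MDSCs the fold change dropped under the limit without vehicle library 1 (-0.58 with MS-275 and -0.57 with CXD101) and, for MS-275, without MS-275 library 1 (-0.57).

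Slc2a3 encodes GLUT3, a carrier with high affinity for glucose, and lies on chromosome 6 from 122727809 to 122801640 on the minus strand. In M-MDSCs its FPKM was 3.75 and 4.81 with vehicle, 5.55 and 6.26 with MS-275 and 4.11 and 4.87 with CXD101. PMN-MDSC libraries held 26.6 and 28.7 with vehicle, 111 and 108 with MS-275 and 103 and 102 with CXD101. The 4 treated PMN-MDSC libraries stood far above both vehicle libraries, whereas in M-MDSCs the CXD101 and vehicle libraries overlapped. Slc2a3 rose in PMN-MDSCs by 1.95 ± 0.066 on the log2 scale with MS-275, 3.86-fold (limma adjusted p 1.8e-06), and by 1.86 ± 0.066 with CXD101, 3.62-fold (adjusted p 2.69e-06). In M-MDSCs the differences were 0.39 ± 0.14 with MS-275 (adjusted p 0.043, under the fold limit) and 0.06 ± 0.14 with CXD101 (adjusted p 0.775). Of the FPKM of both carriers together, Slc2a3 held 22.3 and 26.0% in the vehicle PMN-MDSC libraries, 68.6 and 64.9% with MS-275 and 64.9 and 65.7% with CXD101. In M-MDSCs its share was 4.98 and 6.75% with vehicle, 11.7 and 13.8% with MS-275 and 9.83 and 11.1% with CXD101, so Slc2a1 remained the more abundant carrier there. The summed FPKM of the pair was 71.3 and 75.3 with vehicle and 41.8 to 47.5 with a drug in M-MDSCs, and 110.3 and 119 with vehicle and 156 to 166 with a drug in PMN-MDSCs.

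**Figure D2:**
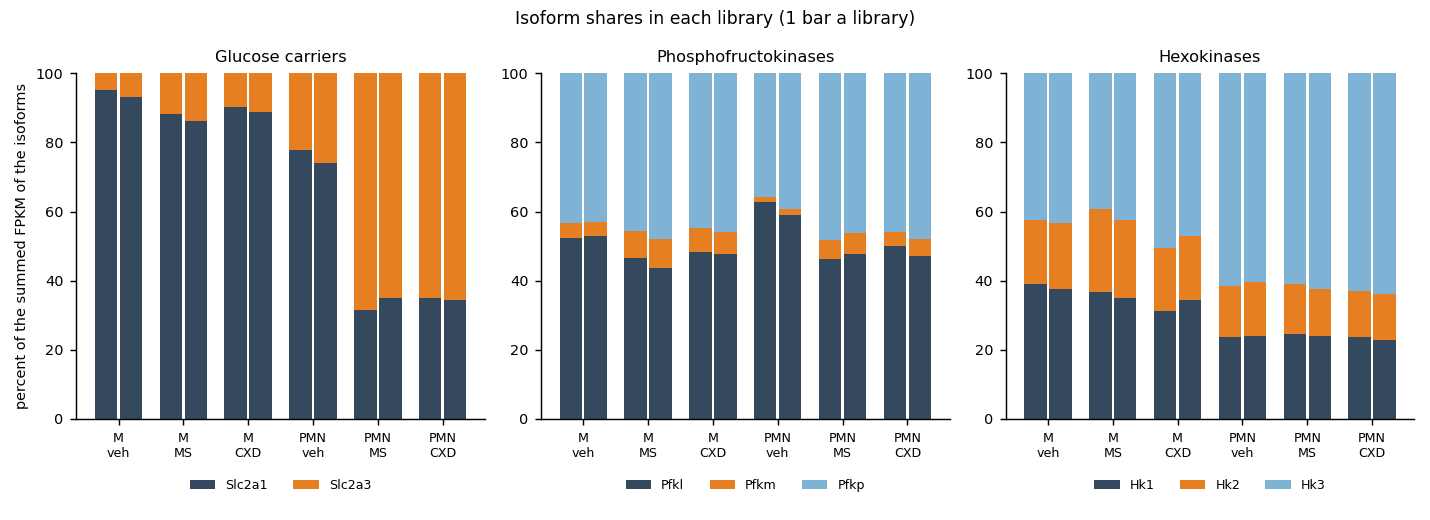
Share of each isoform in the summed FPKM of its family, in percent, with 1 bar per library, for the glucose carriers, the phosphofructokinases and the hexokinases. Slc2a3 holds 64.9 to 68.6% of the carrier FPKM in the 4 treated PMN-MDSC libraries and 22.3 to 26.0% in the vehicle libraries of that subset.

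Hexokinases, which trap glucose as glucose 6-phosphate, were not called in any of the 4 drug comparisons. Hk1 had mean FPKM between 44.7 and 57.0 over the 6 groups, Hk2 between 26.6 and 33.9, and Hk3 between 59.4 and 156. Some differences passed the adjusted p alone: Hk2 in M-MDSCs with MS-275 (0.34 ± 0.069, limma adjusted p 0.00465), Hk3 in M-MDSCs with CXD101 (0.31 ± 0.065, 0.0113), and Hk1 and Hk3 in PMN-MDSCs with both drugs, with Hk1 at 0.34 ± 0.077 and 0.34 ± 0.077 and Hk3 at 0.34 ± 0.073 and 0.44 ± 0.073 for MS-275 and CXD101. Hk3, the isoform of myeloid cells, held 60.5 to 64.0% of the hexokinase FPKM in PMN-MDSC libraries and 39.2 to 50.5% in M-MDSC libraries.

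Among the phosphofructokinases, the muscle isoform Pfkm rose from a low level and the liver isoform Pfkl fell in PMN-MDSCs. Pfkm lies on chromosome 15 from 98092589 to 98132451 on the plus strand. Its FPKM in M-MDSCs was 5.32 and 4.71 with vehicle, 8.74 and 9.21 with MS-275 and 7.51 and 6.99 with CXD101. For PMN-MDSCs the values were 1.76 and 2.17 with vehicle, 5.30 and 6.44 with MS-275 and 3.97 and 4.56 with CXD101. All treated libraries exceeded the vehicle libraries of their subset, with the MS-275 pair above the CXD101 pair in both. Pfkm rose with MS-275 in M-MDSCs (0.73 ± 0.099, limma adjusted p 0.000606) and with MS-275 and CXD101 in PMN-MDSCs (1.21 ± 0.15 and 0.83 ± 0.15, adjusted p 0.000355 and 0.00298). In M-MDSCs with CXD101 the difference was 0.46 ± 0.099 (adjusted p 0.0132), under the fold limit. Of the words of read length in its annotated transcripts, 7.40% also occur in Gm26513, which overlaps it on the same strand, so its level is less certain.

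Pfkl, on chromosome 10 from 77986947 to 78010083 on the minus strand, was at 64.8 and 64.4 FPKM with vehicle, 53.0 and 47.8 with MS-275 and 52.2 and 51.4 with CXD101 in M-MDSCs. It was at 75.9 and 66.0 FPKM with vehicle, 44.0 and 48.6 with MS-275 and 49.3 and 44.4 with CXD101 in PMN-MDSCs. The vehicle libraries were the highest in both subsets. Pfkl fell in PMN-MDSCs with MS-275 (-0.60 ± 0.096, limma adjusted p 0.00132) and CXD101 (-0.59 ± 0.096, 0.00204), close to the fold limit of 0.58 on the log2 scale. The MS-275 call was lost after quantile normalization (-0.57), without vehicle library 1 (-0.50) and without MS-275 library 1 (-0.53). The CXD101 call was lost under both other scalings (-0.57 and -0.55), without vehicle library 1 (-0.49) and without CXD101 library 2 (-0.51). In M-MDSCs the differences were -0.35 ± 0.067 and -0.31 ± 0.067 (adjusted p 0.00325 and 0.0126). Pfkp, the platelet isoform, had group means from 43.7 to 53.1 FPKM and was not called, and Pfkm held 1.46 to 1.93% of the phosphofructokinase FPKM in vehicle and 4.04 to 6.30% in treated PMN-MDSC libraries.

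Of the enzymes that follow, 2 were called, both lower than vehicle. Aldoc encodes aldolase C, a minor aldolase outside the brain, and lies on chromosome 11 from 78322968 to 78327781 on the plus strand. M-MDSC libraries held 24.6 and 25.1 FPKM with vehicle, 12.1 and 11.3 with MS-275 and 13 and 12.4 with CXD101. PMN-MDSC libraries held 23.5 and 19.4 FPKM with vehicle, 7.29 and 7.76 with MS-275 and 10.5 and 10.5 with CXD101. Treated and vehicle libraries did not overlap in either subset. Aldoc fell with MS-275 and CXD101 in M-MDSCs (-1.03 ± 0.077 and -0.92 ± 0.077, limma adjusted p 3.07e-05 and 0.000194) and in PMN-MDSCs (-1.39 ± 0.11 and -0.96 ± 0.11, adjusted p 5.32e-05 and 0.000438). Aldoa, the main aldolase, held 98.3 to 99.4% of the aldolase FPKM in every library, with group means of 1502, 1022 and 1149.7 FPKM in M-MDSCs and 1478, 1212 and 1174 in PMN-MDSCs for vehicle, MS-275 and CXD101. In M-MDSCs the Aldoa difference with MS-275 was -0.55 ± 0.057 (adjusted p 0.000145), just under the fold limit.

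Tpi1 encodes triosephosphate isomerase and lies on chromosome 6 from 124810586 to 124814296 on the minus strand. Its FPKM in M-MDSCs was 473 and 481 with vehicle, 273 and 278 with MS-275 and 345 and 329 with CXD101. Values of 334 and 294 with vehicle, 161 and 176 with MS-275 and 190.0 and 179 with CXD101 were found in PMN-MDSCs. In each subset the vehicle pair was highest and the CXD101 pair lay between the vehicle and MS-275 pairs. In PMN-MDSCs the treated pairs lay close, at 179 with CXD101 and 176 with MS-275 for the nearest libraries. Tpi1 fell with MS-275 in M-MDSCs (-0.79 ± 0.052, limma adjusted p 1.84e-05) and with MS-275 and CXD101 in PMN-MDSCs (-0.89 ± 0.081 and -0.76 ± 0.081, adjusted p 9.14e-05 and 0.000305). With CXD101 in M-MDSCs it differed by -0.50 ± 0.052 (adjusted p 0.000525), under the fold limit.

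Gapdh, Pgk1, Pgam1, Eno1, Pkm and Gpi1 were not called in any drug comparison. Gapdh encodes glyceraldehyde-3-phosphate dehydrogenase and was the member with the highest level in every group. Its mean FPKM was 2777 with vehicle, 2087 with MS-275 and 2573 with CXD101 in M-MDSCs, and 2432, 1861 and 2039 in PMN-MDSCs. The Gapdh differences with MS-275 passed the adjusted p in both subsets (-0.41 ± 0.056 and -0.39 ± 0.074, limma adjusted p 0.000623 and 0.00332), as did that with CXD101 in PMN-MDSCs (-0.25 ± 0.074, 0.026) but not in M-MDSCs (-0.11 ± 0.056, 0.194). Pgk1, phosphoglycerate kinase, differed by -0.26 and -0.26 in M-MDSCs and -0.26 and -0.34 in PMN-MDSCs for MS-275 and CXD101, and Pgam1, phosphoglycerate mutase, by -0.24, -0.18, -0.30 and -0.28, all with adjusted p under 0.05. Eno1, the main enolase, ranged from -0.38 to -0.12 over the 4 comparisons. For pyruvate kinase, Pkm, the range was -0.25 to 0.01, and for Gpi1, glucose-6-phosphate isomerase, -0.08 to 0.22. Eno2 was under 1 FPKM in all but 2 libraries, at 0 and 0.0444 with vehicle, 0.909 and 1.18 with MS-275 and 0.174 and 0.23 with CXD101 in M-MDSCs and 0.302 and 0.134 with vehicle, 1.29 and 0.742 with MS-275 and 0.104 and 0.459 with CXD101 in PMN-MDSCs. With the filter on low values it was not tested in the fits of 1 subset. Levels of several of these enzymes may be shared with near-identical copies, because 51.6% of the read-length words of Pgk1, 33.9% of Pgam1, 20.8% of Gapdh, 20.3% of Eno1 and 12.1% of Pkm also occur in transcripts annotated to other genes.

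The hexokinases, the phosphofructokinases, the 10 other glycolytic enzymes and the lactate dehydrogenases were added up. Together they held 1.59 and 1.62% of the FPKM in vehicle M-MDSC libraries, 1.33 and 1.28% with MS-275 and 1.41 and 1.39% with CXD101. The shares in PMN-MDSC libraries were 1.29 and 1.18%, 0.773 and 0.84% and 0.837 and 0.806%. With S100a8 and S100a9 left out of the total, the PMN-MDSC shares were 1.37 to 1.43% with vehicle and 1.10 to 1.17% with a drug. The treated libraries stayed below the vehicle libraries either way.

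Ldhb, a lactate dehydrogenase, had the largest fold change among the members tested within subsets. Ldhb encodes the B subunit, which predominates in heart and other oxidative tissues, and lies on chromosome 6 from 142490249 to 142507957 on the minus strand. In M-MDSCs its FPKM was 2.33 and 3.05 with vehicle, 26.5 and 19.9 with MS-275 and 14.8 and 10.7 with CXD101. PMN-MDSC values were 2.88 and 2.2 with vehicle, 6.88 and 5.29 with MS-275 and 4.55 and 5.47 with CXD101. All treated libraries were above the vehicle libraries of their subset, most clearly in M-MDSCs. Ldhb rose 6.52-fold with MS-275 and 3.70-fold with CXD101 in M-MDSCs (log2 fold change 2.70 ± 0.18 and 1.89 ± 0.18, limma adjusted p 1.84e-05 and 0.00033) and by 1.0 ± 0.17 and 0.77 ± 0.17 in PMN-MDSCs (adjusted p 0.00169 and 0.00757). The last of these calls was lost without CXD101 library 2 (0.66, adjusted p 0.0559).

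Ldha, the A subunit typical of glycolytic tissues, had mean FPKM of 814, 672 and 724 in M-MDSCs and 540.4, 426 and 433 in PMN-MDSCs and was not called with either drug. Its differences were between -0.34 and -0.17 on the log2 scale. Ldhb was a small part of lactate dehydrogenase mRNA: 0.288 to 0.37% in vehicle, 3.0 to 3.63% in MS-275 and 1.52 to 1.91% in CXD101 libraries of M-MDSCs, and 0.438 to 0.493%, 1.21 to 1.61% and 1.01 to 1.29% in PMN-MDSCs.

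The lactate carriers were called lower in different subsets. Slc16a3 encodes MCT4, the carrier that exports lactate from glycolytic cells, and lies on chromosome 11 from 120948480 to 120960868 on the plus strand. In M-MDSCs it had 70.5 and 73.2 FPKM with vehicle, 45.5 and 46.7 with MS-275 and 41.0 and 40.7 with CXD101. In PMN-MDSCs it had 131 and 111 FPKM with vehicle, 101 and 114 with MS-275 and 97.3 and 98.1 with CXD101. Treated M-MDSC libraries were clearly below vehicle, while in PMN-MDSCs an MS-275 library overlapped the vehicle pair. Slc16a3 fell in M-MDSCs with MS-275 (-0.63 ± 0.059, limma adjusted p 8.93e-05, -0.49 and not called after quantile normalization) and with CXD101 (-0.80 ± 0.059, 0.00011). The PMN-MDSC differences were -0.16 ± 0.093 and -0.30 ± 0.093 (adjusted p 0.178 and 0.0347).

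Slc16a1 encodes MCT1, which carries lactate in both directions, and lies on chromosome 3 from 104638668 to 104658462 on the plus strand. Its FPKM was 15.6 and 13.8 with vehicle, 19.9 and 19.4 with MS-275 and 18.8 and 17.9 with CXD101 in M-MDSCs. In PMN-MDSCs it was 4.71 and 4.65 with vehicle, 2.72 and 2.52 with MS-275 and 3.26 and 3.0 with CXD101. The treated libraries were above vehicle in M-MDSCs and below it in PMN-MDSCs. Slc16a1 fell with MS-275 in PMN-MDSCs (-0.65 ± 0.12, limma adjusted p 0.00314), at a level too low for a minimum of 5 FPKM, and with CXD101 the difference was -0.46 ± 0.12 (adjusted p 0.0184). In M-MDSCs it was 0.40 ± 0.084 with MS-275 and 0.30 ± 0.084 with CXD101 (adjusted p 0.00539 and 0.0336), both under the fold limit.

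Among the regulators of flux, Pfkfb3 rose and Pdk1 fell. Pfkfb3 makes fructose 2,6-bisphosphate, the activator of phosphofructokinase, and lies on chromosome 2 from 11471433 to 11554077 on the minus strand. M-MDSC values were 8.67 and 7.81 FPKM with vehicle, 15.0 and 15.7 with MS-275 and 12.3 and 12.4 with CXD101. PMN-MDSC values were 13.7 and 13.3 FPKM with vehicle, 20.2 and 19.6 with MS-275 and 21.8 and 20.05 with CXD101. Treated libraries were above vehicle in both subsets. Pfkfb3 rose with MS-275 in M-MDSCs (0.82 ± 0.085, limma adjusted p 0.000154) and with CXD101 in PMN-MDSCs (0.59 ± 0.084, 0.00112). The latter sat at the fold limit and dropped under it without vehicle library 2 (0.57) or CXD101 library 1 (0.53). The remaining comparisons gave 0.53 ± 0.085 and 0.52 ± 0.084 (adjusted p 0.00369 and 0.00141).

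Pfkfb4, a relative of Pfkfb3, was not called with either drug, although its differences in PMN-MDSCs were 0.52 ± 0.066 and 0.53 ± 0.066 (limma adjusted p 0.000431 and 0.000598), against 0.05 ± 0.087 and 0.05 ± 0.087 in M-MDSCs. Pdk1 encodes pyruvate dehydrogenase kinase 1, which blocks the entry of pyruvate into the citric acid cycle, and lies on chromosome 2 from 71873224 to 71903858 on the plus strand. In M-MDSCs it was at 12 and 11.9 FPKM with vehicle, 10.4 and 8.94 with MS-275 and 10.04 and 10.3 with CXD101. Its PMN-MDSC values were 10.6 and 10.3 FPKM with vehicle, 5.90 and 5.87 with MS-275 and 5.85 and 5.17 with CXD101. Each vehicle library was above each treated library of its subset. Pdk1 fell in PMN-MDSCs with MS-275 (-0.73 ± 0.11, adjusted p 0.000869) and CXD101 (-0.82 ± 0.11, 0.000742), and differed by -0.28 ± 0.093 and -0.21 ± 0.093 in M-MDSCs (adjusted p 0.0359 and 0.138).

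**Figure D3:**
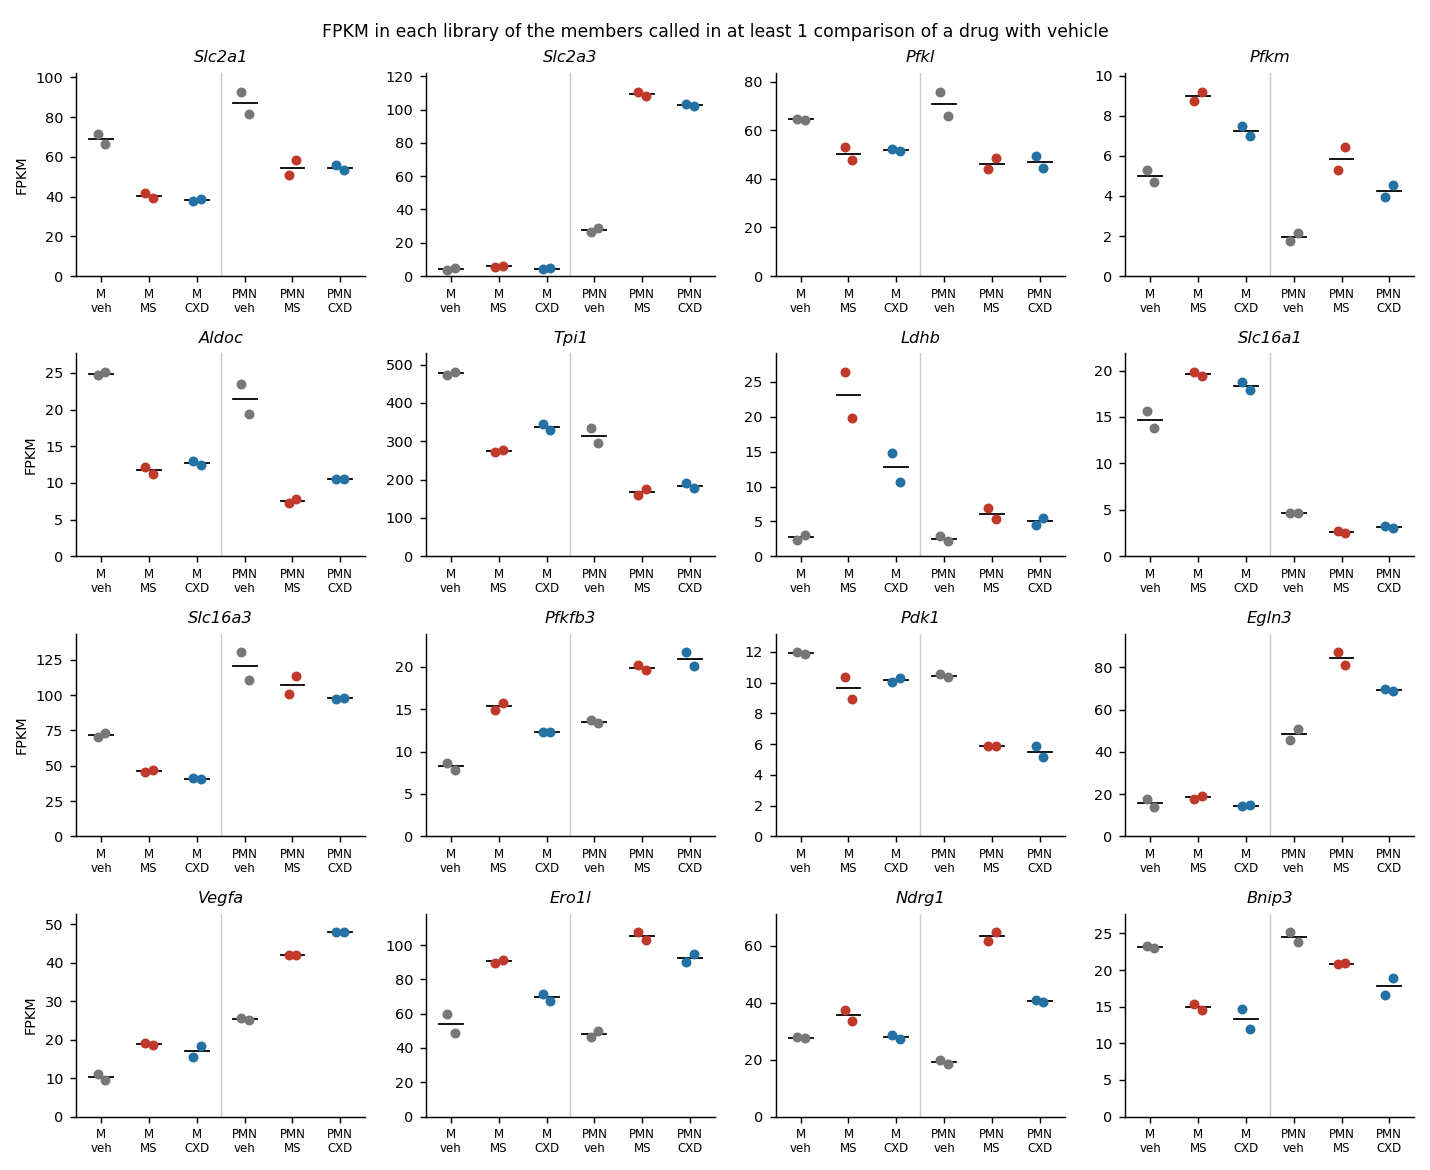
FPKM in each library (points) and group mean (bars) of the 16 members called in at least 1 comparison of a drug with vehicle, with vehicle in grey, MS-275 (MS) in red and CXD101 (CXD) in blue, M-MDSCs left and PMN-MDSCs right in each panel. Slc2a3 exceeds 100 FPKM in the treated PMN-MDSC libraries only, and Ldhb is highest with MS-275 in M-MDSCs, at 26.5 and 19.9 FPKM.

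Oxygen sensing showed few calls. Hif1a encodes the oxygen-regulated subunit of HIF-1, which is controlled mainly at the protein level, and its mean FPKM lay between 35.7 and 45.0 over the 6 groups, with no call. Egln1, the main prolyl hydroxylase (PHD2), had differences of -0.31 and -0.30 in M-MDSCs and -0.54 and -0.48 in PMN-MDSCs, which passed the adjusted p and not the fold limit. Egln3 encodes PHD3, a hydroxylase that HIF itself induces, and lies on chromosome 12 from 54178981 to 54203860 on the minus strand. It had 17.5 and 14 FPKM with vehicle, 17.8 and 19.1 with MS-275 and 14.2 and 15.0 with CXD101 in M-MDSCs. PMN-MDSCs showed 45.6 and 51.0 FPKM with vehicle, 87.3 and 81.1 with MS-275 and 69.6 and 68.9 with CXD101. The groups were separate in PMN-MDSCs, with MS-275 highest, and in M-MDSCs the CXD101 pair lay within the vehicle pair. Egln3 rose with MS-275 in PMN-MDSCs (0.79 ± 0.077, limma adjusted p 0.000128), and with CXD101 the difference was 0.51 ± 0.077 (adjusted p 0.00145), against 0.22 ± 0.11 and -0.09 ± 0.11 in M-MDSCs (adjusted p 0.12 and 0.579).

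Of the 6 effectors of the hypoxia response, 3 rose and 1 fell in at least 1 drug comparison, and 2 were not called. In M-MDSCs, 2 rose and 1 fell with MS-275, against 10.1% and 7.32% of all genes tested. With CXD101, 1 rose and 1 fell there, against 5.14% and 3.0%. In PMN-MDSCs, 3 rose and 0 fell with each drug, against 14.6% and 14.2% with MS-275 and 11.9% and 9.54% with CXD101. Vegfa encodes the vascular endothelial growth factor A and lies on chromosome 17 from 46016993 to 46032369 on the minus strand. Its FPKM in M-MDSCs was 11.2 and 9.61 with vehicle, 19.1 and 18.5 with MS-275 and 15.5 and 18.4 with CXD101. In PMN-MDSCs, 25.5 and 25 with vehicle, 42.0 and 41.9 with MS-275 and 47.9 and 47.9 with CXD101 were measured. Both drugs separated from vehicle in both subsets. Vegfa rose in M-MDSCs with MS-275 (0.80 ± 0.10, limma adjusted p 0.000494) and CXD101 (0.66 ± 0.10, 0.00345), and in PMN-MDSCs with MS-275 (0.71 ± 0.067, 0.000103) and CXD101 (0.90 ± 0.067, 5.87e-05). The CXD101 call in M-MDSCs was lost without vehicle library 2 (0.56) or CXD101 library 2 (0.54).

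Ero1l encodes an oxidase of the endoplasmic reticulum that forms disulfide bonds in secreted proteins and lies on chromosome 14 from 45283087 to 45318771 on the minus strand. M-MDSCs had 59.7 and 48.8 FPKM with vehicle, 89.7 and 91.3 with MS-275 and 71.8 and 67.2 with CXD101. PMN-MDSCs had 46.5 and 50.1 FPKM with vehicle, 108 and 103 with MS-275 and 90.1 and 95.1 with CXD101. All treated libraries exceeded vehicle. Ero1l rose with MS-275 in M-MDSCs (0.73 ± 0.092, limma adjusted p 0.00042) and with MS-275 and CXD101 in PMN-MDSCs (1.11 ± 0.069 and 0.93 ± 0.069, adjusted p 1.68e-05 and 6.16e-05), with 0.36 ± 0.092 for CXD101 in M-MDSCs (adjusted p 0.0263).

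Ndrg1 is a stress-responsive gene induced by hypoxia and by differentiation, on chromosome 15 from 66929318 to 66969640 on the minus strand. Its M-MDSC values were 27.9 and 27.5 FPKM with vehicle, 37.6 and 33.6 with MS-275 and 28.8 and 27.2 with CXD101. The PMN-MDSC values were 19.8 and 18.4 FPKM with vehicle, 61.8 and 64.8 with MS-275 and 41.1 and 40.3 with CXD101. The 3 PMN-MDSC groups did not overlap, whereas vehicle and CXD101 overlapped in M-MDSCs. Ndrg1 rose 3.20-fold with MS-275 and 2.08-fold with CXD101 in PMN-MDSCs (1.68 ± 0.074 and 1.05 ± 0.074, limma adjusted p 4.34e-06 and 4.59e-05), and differed by 0.35 ± 0.076 and 0.01 ± 0.076 in M-MDSCs (adjusted p 0.00624 and 0.913). In the same PMN-MDSC libraries the summed FPKM of the neutrophil markers was 255532 or more with a drug and 97549 or less with vehicle. S100a8 and S100a9 contributed most of these sums. Of the 10 markers, 8 were called higher with each drug. Csf3r was not called (log2 fold change 0.56 with MS-275 and 0.24 with CXD101), and Mmp9 differed by -0.65 and -0.58. The part of these markers in the rises of Slc2a3 and Ndrg1 was not tested.

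Bnip3 encodes a mitophagy receptor and lies on chromosome 7 from 138890836 to 138909519 on the minus strand. FPKM values of 23.3 and 23.0 with vehicle, 15.4 and 14.5 with MS-275 and 14.6 and 12 with CXD101 were found in M-MDSCs. In PMN-MDSCs they were 25.2 and 23.9 with vehicle, 20.8 and 20.9 with MS-275 and 16.6 and 19.0 with CXD101. Treated libraries were below vehicle throughout. Bnip3 fell in M-MDSCs with MS-275 (-0.60 ± 0.099, limma adjusted p 0.0016) and CXD101 (-0.76 ± 0.099, 0.00133), and differed by -0.22 ± 0.091 and -0.44 ± 0.091 in PMN-MDSCs (adjusted p 0.0689 and 0.00566). The MS-275 call was lost with median-of-ratios scaling (-0.56), quantile normalization (-0.51) and without MS-275 library 2 (-0.56). P4ha1, a collagen prolyl hydroxylase subunit, and Bnip3l, a second mitophagy receptor, were not called with either drug. P4ha1 differed by 0.21 and -0.08 in M-MDSCs and -0.52 and -0.52 in PMN-MDSCs, the latter pair with limma adjusted p 0.00114 and 0.00156. Bnip3l differed by -0.10 to 0.28 over the 4 comparisons.

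MS-275 and CXD101 were then compared directly, as 1 pair of compounds at the matched dose and schedule, in both subsets and over 33 members in each, with p-values adjusted over all genes tested. In M-MDSCs, 1 member was higher with MS-275 and 0 lower, against 3.22% and 1.17% of all genes tested. The member was Ldhb, at a log2 difference of 0.82 (95% confidence interval 0.40 to 1.23, limma adjusted p 0.0227), whose MS-275 pair lay above its CXD101 pair. This call was lost without MS-275 library 1 (0.62, adjusted p 0.113), without CXD101 library 2 (0.60, 0.108), with no filter on low values (0.0769) and with no intensity trend (0.0509). Tpi1, Gapdh and Hk3 were lower with MS-275 and Ero1l and Ndrg1 higher by the adjusted p alone, by -0.29, -0.30, -0.33, 0.38 and 0.33. In PMN-MDSCs, 1 member was higher and 0 lower, against 0.465% and 0.340% of all genes. Here it was Ndrg1 (0.62, 0.45 to 0.80, adjusted p 0.0226), and the call was lost when any 1 of the 4 treated PMN-MDSC libraries was left out (0.59 to 0.66, adjusted p 0.109 to 0.14) and also with no filter (0.0678) or no trend (0.0654).

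For other called members, the interval bounds how far the drugs could differ. For Slc2a3 in PMN-MDSCs it was -0.06 to 0.24 on the log2 scale, beside increases of 1.95 and 1.86. Slc2a1 had intervals of -0.08 to 0.23 in M-MDSCs and -0.22 to 0.21 in PMN-MDSCs, and Vegfa of -0.09 to 0.39 and -0.34 to -0.03 (limma adjusted p 0.247 for the latter). The intervals of Aldoc in PMN-MDSCs (-0.69 to -0.17, limma adjusted p 0.138) and of Pfkm in M-MDSCs (0.05 to 0.50, 0.106) and PMN-MDSCs (0.04 to 0.72, 0.28) left out 0. Further members had intervals without 0 that are not listed here, Egln3 in PMN-MDSCs (difference 0.28) and Pfkfb3 in M-MDSCs (0.30) among them. For Aldoc, Pfkm, Egln3 and Pfkfb3, as for Vegfa in PMN-MDSCs, this held before adjustment only.

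**Figure D4:**
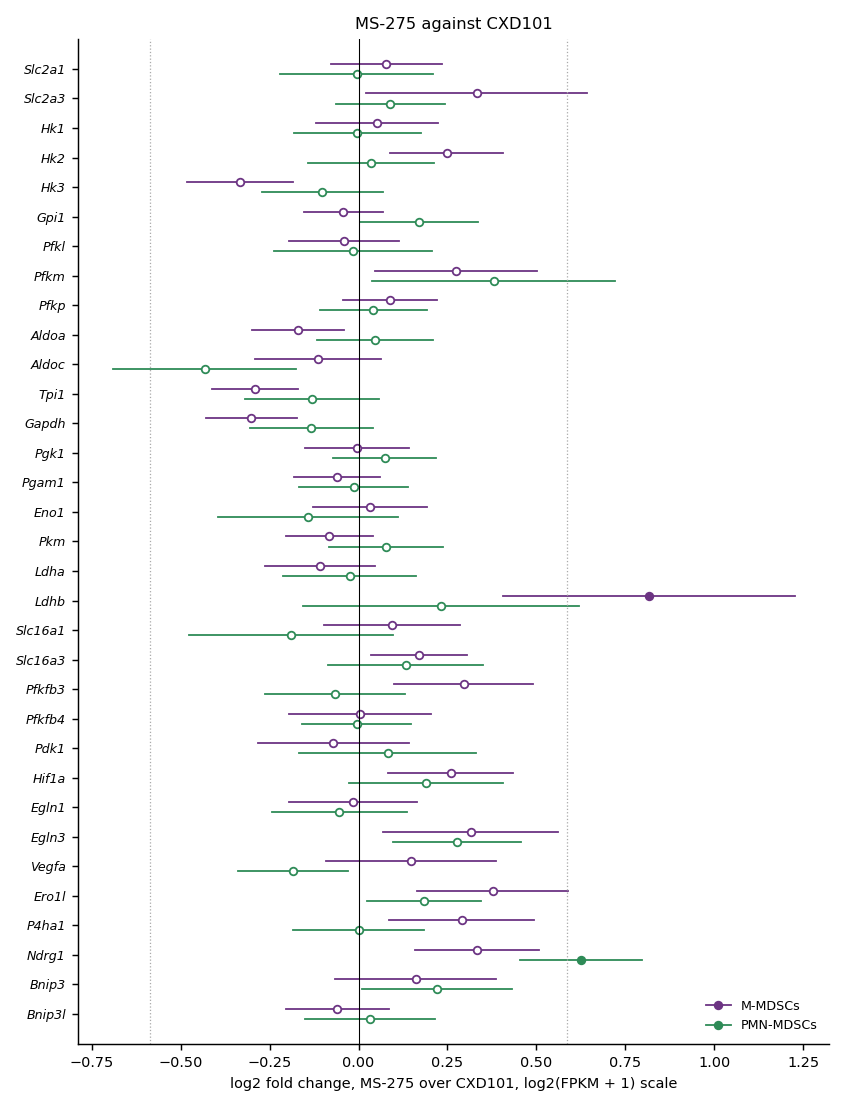
Log2 difference between MS-275 and CXD101 with its 95% confidence interval for 33 members, in M-MDSCs (purple) and PMN-MDSCs (green). Filled points were called, and dotted lines mark a 1.5-fold change. Ldhb in M-MDSCs, at 0.82, and Ndrg1 in PMN-MDSCs, at 0.62, are the 2 filled points.

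Under vehicle, Slc2a3, Pfkfb4 and Egln3 stood higher in PMN-MDSCs and Slc16a1 and Pfkm higher in M-MDSCs. Tested in a model of all 12 libraries, 8 of 34 members had higher and 4 had lower levels in vehicle PMN-MDSCs relative to vehicle M-MDSCs, against 17.2% and 16.8% of all genes tested. The order of the 9 members with the highest mean FPKM was the same in both: Gapdh, Aldoa, Pkm, Eno1, Ldha, Pgam1, Pgk1, Tpi1 and Gpi1. Within this order the libraries of Eno1 and Ldha overlapped in vehicle M-MDSCs, at 803 and 847 FPKM for Eno1 and 807 and 822 for Ldha. In vehicle PMN-MDSCs, Ldha overlapped Pgam1 (581 and 500.1 against 538 and 488) and Tpi1 overlapped Gpi1 (334 and 294 against 309 and 290.1). All 10 neutrophil markers were called higher in PMN-MDSCs in this comparison. Of 8 macrophage markers, 5 were called higher and 1 lower, and of 7 eosinophil markers, 3 higher and 1 lower. Of 6 monocyte markers, 1 was called higher and 3 lower. The part of these markers in the differences was not tested.

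The members higher in PMN-MDSCs were Slc2a3 (log2 difference 2.45 ± 0.11, limma adjusted p 1.92e-08), Pfkfb4 (1.72 ± 0.066), Egln3 (1.57 ± 0.099), Vegfa (1.21 ± 0.088), Hk3 (0.91 ± 0.069), Bnip3l (0.89 ± 0.069), Slc16a3 (0.73 ± 0.081) and Pfkfb3 (0.65 ± 0.077), the others with adjusted p of 1.01e-08 to 2.96e-05. Pfkfb4 was at 8.56 and 9.27 FPKM in vehicle M-MDSCs and 31.6 and 31.6 in vehicle PMN-MDSCs. Hk3 was at 59.4 and 61.4 FPKM in M-MDSCs against 117 and 112 in PMN-MDSCs, and Bnip3l at 42.5 and 39.9 against 74.3 and 79.7. None of these pairs overlapped. Lower in PMN-MDSCs were Slc16a1 (-1.47 ± 0.089, adjusted p 2.35e-07), Pfkm (-1.02 ± 0.12, 2.83e-05), Tpi1 (-0.61 ± 0.070, 2.51e-05) and Ldha (-0.59 ± 0.079, 7.01e-05). Ldha held 807 and 822 FPKM in M-MDSCs and 581 and 500.1 in PMN-MDSCs, and lost its call after quantile normalization (-0.55), without vehicle M-MDSC library 2 (-0.58) and without vehicle PMN-MDSC library 2 (-0.49). The last omission also ended the call of Tpi1 (-0.52).

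The response to the drugs was tested for a difference between the subsets as an interaction, the log2 fold change in PMN-MDSCs minus that in M-MDSCs. With MS-275, 2 members had the higher value in PMN-MDSCs and 3 the lower, against 8.65% and 9.48% of all genes tested, and with CXD101 3 and 3, against 7.31% and 6.59%. Slc2a3 (1.55 ± 0.15 with MS-275 and 1.80 ± 0.15 with CXD101, limma adjusted p 6.55e-05 and 4.99e-05) and Ndrg1 (1.33 ± 0.10 and 1.04 ± 0.10, 1.67e-05 and 0.000119) had larger fold changes in PMN-MDSCs with both drugs. The fold change of Ldhb was smaller there (-1.71 ± 0.27 and -1.12 ± 0.27, 0.0012 and 0.0139), and the CXD101 interaction was lost without vehicle M-MDSC library 1 (-0.98, 0.0532) or CXD101 M-MDSC library 1 (-0.90, 0.0563). For Slc16a1, whose treated libraries lay above vehicle in M-MDSCs and below it in PMN-MDSCs, the interaction was -1.05 ± 0.13 and -0.76 ± 0.13 (adjusted p 0.00024 and 0.00195).

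P4ha1 differed between the subsets with MS-275 (-0.72 ± 0.11, limma adjusted p 0.00105). Its FPKM in M-MDSCs was 17.4 and 16.4 with vehicle, 20.2 and 19.1 with MS-275 and 17 and 14.8 with CXD101. The PMN-MDSC libraries had 25.9 and 25.1 with vehicle, 17.5 and 17.6 with MS-275 and 17 and 18 with CXD101. MS-275 libraries were above vehicle in M-MDSCs, and all treated libraries were below vehicle in PMN-MDSCs. With CXD101 the interaction of P4ha1 was -0.43 ± 0.11 (adjusted p 0.0191), under the fold limit. Pdk1 (-0.61 ± 0.13, 0.00732) and Egln3 (0.60 ± 0.14, 0.0109) were called with CXD101, and with MS-275 their interactions were -0.45 and 0.57 (adjusted p 0.023 and 0.0116). Pdk1 lost the call without CXD101 PMN-MDSC library 2 (-0.53), and Egln3 without vehicle M-MDSC library 1 (0.45), CXD101 M-MDSC library 1 (0.57) or vehicle PMN-MDSC library 1 (0.52). The interactions of Tpi1, Gapdh, Pgk1, Pgam1, Eno1, Pkm and Ldha were -0.27 to 0.26 with MS-275 and -0.26 to 0.10 with CXD101, and 0 of these 7 were called.

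**Figure D5:**
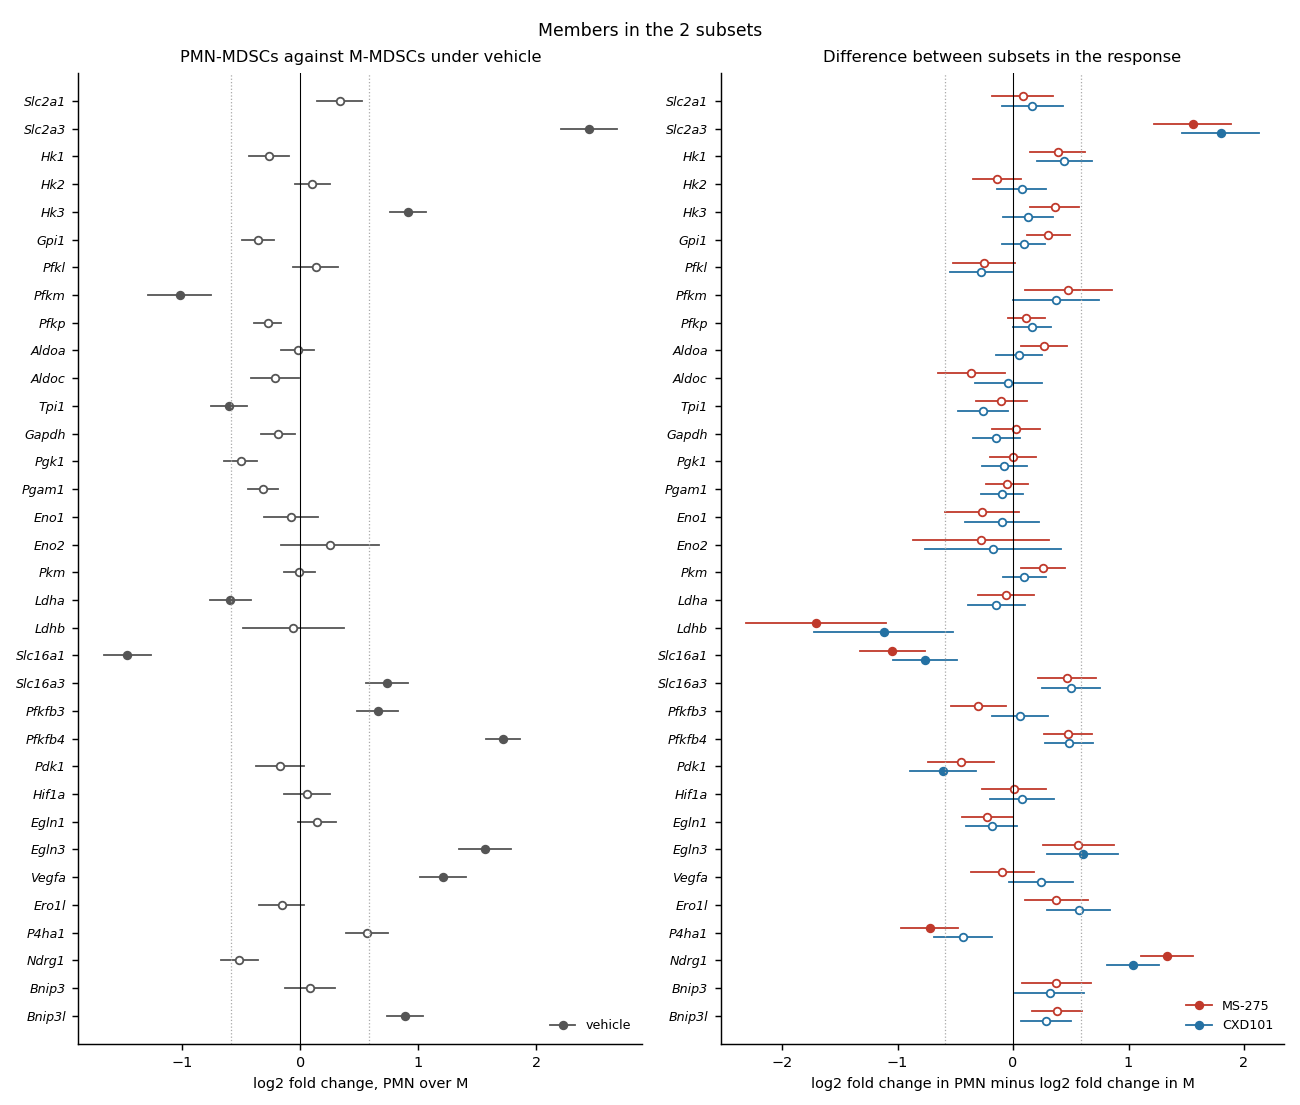
Left, log2 difference between PMN-MDSCs and M-MDSCs under vehicle, and right, the difference between the subsets in the response to MS-275 (red) and CXD101 (blue), each with its 95% confidence interval for 34 members. Filled points were called, and dotted lines mark a 1.5-fold difference. Slc2a3 lies far to the right in both panels, at 2.45 under vehicle and at 1.55 and 1.80 for the drugs.

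Other genes of the pathway were counted from lists chosen by function. In M-MDSCs with MS-275, where 10.1% of all genes tested rose and 7.32% fell, of 26 other hypoxia-responsive genes tested 4 rose and 5 fell, of 9 other regulators of glycolysis 2 rose, of 8 other sugar and monocarboxylate carriers 1 rose and 2 fell, of 11 oxygen-sensing and HIF genes 1 rose and 1 fell, and 1 rose in each of the lists for the pentose phosphate pathway (11 tested), gluconeogenesis and glycogen (13), pyruvate entry into mitochondria (12) and tissue-restricted glycolytic isozymes (4). The largest differences were those of Ankrd37, an ankyrin repeat gene (9.22 and 9.62 FPKM with vehicle, 1.60 and 3.10 with MS-275, -1.67 ± 0.24, limma adjusted p 0.000735), P4ha2, a collagen prolyl hydroxylase subunit (0.137 and 0.478 against 3.03 and 2.94, 1.62 ± 0.17), and Mlxipl, the glucose-sensing factor ChREBP (0.138 and 0.288 against 1.53 and 1.90, 1.16 ± 0.17). With CXD101, against 5.14% of all genes that rose and 3.0% that fell, 2 of the 26 hypoxia-responsive genes rose and 2 fell, 2 of the 4 tissue-restricted isozymes and 1 of the 13 gluconeogenesis and glycogen genes rose, 1 of the 8 carriers fell, and 0 genes of the other lists were called. Ankrd37 (3.05 and 1.76 FPKM, -1.64), the carrier Slc2a6 (61.1 and 63.5 with vehicle and 33.4 and 29.4 with CXD101, -0.97) and the transcription factor Bhlhe40 (111 and 117 against 62.0 and 63.6, -0.85) fell most. List medians lay between -0.18 and 0.27 with MS-275 and between -0.11 and 0.39 with CXD101, against -0.06 and -0.02 over all genes. Between the drugs, P4ha2 (1.36) and Mlxipl (0.91) were higher with MS-275 and no other listed gene was called in either subset.

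In PMN-MDSCs, Pygm, Pgam2 and Fbp1 had the largest fold changes among the listed genes with both drugs. Pygm, the muscle glycogen phosphorylase, was at 3.75 and 4.90 FPKM with vehicle, 26.3 and 25.2 with MS-275 and 20.7 and 19.9 with CXD101 and rose by 2.34 ± 0.12 with MS-275 and 2.01 ± 0.12 with CXD101 on the log2 scale (limma adjusted p 6.92e-06 and 2.06e-05). Pgam2, the muscle phosphoglycerate mutase, was at 1.28 and 1.15 FPKM with vehicle, 9.66 and 7.57 with MS-275 and 6.30 and 7.29 with CXD101 (2.11 and 1.81). Fbp1, fructose-1,6-bisphosphatase, was at 0.793 and 0.272 FPKM with vehicle, 3.58 and 4.85 with MS-275 and 3.47 and 3.62 with CXD101 (1.78 and 1.59). All 3 had non-overlapping vehicle and treated libraries. Over all genes, 14.6% rose and 14.2% fell with MS-275 and 11.9% and 9.54% with CXD101. Of the 14 gluconeogenesis and glycogen genes tested, 3 rose and 0 fell with each drug, of the 21 hypoxia-responsive genes 4 rose and 6 fell with MS-275 and 3 rose and 4 fell with CXD101, and of the 12 genes of pyruvate entry 3 rose and 1 fell with MS-275 and 2 rose with CXD101. Of the 12 oxygen-sensing and HIF genes, 2 rose with each drug and 1 fell with MS-275, of the 8 carriers 2 and 1 rose and 1 and 1 fell, of the 8 regulators 1 and 1 rose and 0 and 1 fell, of the 11 pentose phosphate genes 1 and 1 rose and 1 and 0 fell, and of the 4 tissue-restricted isozymes 1 rose with each. List medians lay between -0.24 and 1.17 with MS-275 and between -0.27 and 1.08 with CXD101, both extremes coming from the hypoxia-responsive genes and the isozymes, against -0.03 over all genes.

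Under vehicle, the lists held genes of either direction in PMN-MDSCs against M-MDSCs: 6 higher and 5 lower of 26 hypoxia-responsive genes, 4 and 3 of 14 gluconeogenesis and glycogen genes, 1 and 3 of 11 pentose phosphate genes, 0 and 4 of 12 genes of pyruvate entry, 2 and 1 of 9 regulators, 2 and 0 of 13 oxygen-sensing and HIF genes, 1 and 0 of 8 carriers and 1 and 0 of 4 tissue-restricted isozymes. Over all genes, 17.2% were higher and 16.8% lower. List medians lay between -0.42 and 0.27, against -0.01 over all genes. Txnip, an inhibitor of glucose uptake (80.6 and 78.0 FPKM in M-MDSCs and 269 and 296 in PMN-MDSCs, 1.82 ± 0.063, limma adjusted p 5.75e-09), and Pygl, the liver glycogen phosphorylase (199 and 194 against 511 and 563, 1.45), were higher in PMN-MDSCs, and Pck2, mitochondrial phosphoenolpyruvate carboxykinase (16.4 and 18.3 against 7.07 and 4.92, -1.41), was lower. Among the listed genes, the response differed most between the subsets for Ankrd37 (1.5 with MS-275 and 1.37 with CXD101), which fell in M-MDSCs and was at 12.7 and 13.3 FPKM with vehicle, 11 and 11.8 with MS-275 and 10.3 and 11 with CXD101 in PMN-MDSCs. With MS-275, Trib3, a pseudokinase of the stress response (1.48), and Ak4, a mitochondrial adenylate kinase (-1.40), came next, and with CXD101 Fbp1 (1.35) and Trib3 (1.26). List medians lay between -0.15 and 0.45 with MS-275 and between -0.15 and 0.41 with CXD101, with 0.02 and -0.01 for all genes. For the interactions, 5 and 7 of 26 hypoxia-responsive genes were called higher and lower with MS-275 and 4 and 2 with CXD101, and 3 and 1 of 14 gluconeogenesis and glycogen genes with each drug, against 8.65% and 9.48% of all genes with MS-275 and 7.31% and 6.59% with CXD101. The other 6 lists held 13, 12, 11, 9, 8 and 4 tested genes. Over these lists together, 8 genes were called higher and 1 lower with MS-275 and 5 higher and 1 lower with CXD101, beside the same shares of all genes.

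Read assignment limits some of these levels. The libraries were stranded, but whether strand was used in counting was not given in the sources used here, and exons of 12 members overlap a gene on the other strand, Slc2a1, Tpi1, Ndrg1 and Bnip3 among them. Words of read length were shared with no other annotated transcript in 21 members, and over 5% were shared in 9, including Ldhb (6.19%), Bnip3 (6.73%) and Bnip3l (13.9%).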

How the data were processed

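M-MDSCs and PMN-MDSCs were sorted, and stranded mRNA libraries were sequenced as single reads of 101 bases. FPKM values per gene were made by the authors and used as deposited. The submitters' processing notes name TopHat2 2.1.1, Bowtie2 2.2.8, SAMtools 0.1.18, Cuffdiff 2.2.1 and build mm10. The annotation, the use of strand in counting and the normalization between libraries were not given in the sources used here, and read totals were not used here, so precision comes from the 2 libraries per group. From the FPKM, log2(FPKM + 1) was fitted with limma 3.58.1 in R 4.3.3 with an intensity trend, for genes at 1 FPKM or more in at least 2 libraries, in 6 libraries within a subset and in 12 across subsets, over 9 comparisons. P-values were adjusted over all genes tested by Benjamini-Hochberg. In data simulated for MS-275 against vehicle in M-MDSCs, 184 of 200 genes changed by 1 on the log2 scale were recovered. There were 5 false calls, with 10658 genes tested, the changed ones included. The changed genes were drawn only from those above a minimum vehicle level, so recovery at the lowest levels was not measured. Gene loci are from GENCODE M21 (GRCm38), and exon overlaps and shared words of 101 bases were counted there. Alternatives changed the pseudocount, filter, scaling, trend, libraries, fold limit and replicate block. All 34 members were named, and of the other lists at most 3 called genes per comparison, those with the largest fold change. Marker lists were described by summed FPKM, and their calls come from the same fits. The members and lists were chosen with earlier results of these data known.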

Additional observations from a re-analysis of the deposited data

Results flagged for a closer look

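The results given here stood out because the test of the difference between the subsets, the log2 fold change in PMN-MDSCs minus that in M-MDSCs in a limma model of 12 libraries, passed both limits. Slc2a3, at 1.55 with MS-275 and 1.80 with CXD101, had 4 treated PMN-MDSC libraries above both vehicle libraries, and in M-MDSCs the CXD101 pair overlapped vehicle. Ndrg1 gave 1.33 with MS-275 and 1.04 with CXD101, with the same pattern of libraries. Ldhb gave -1.71 with MS-275 and -1.12 with CXD101, with treated above vehicle libraries in both subsets. Slc16a1 gave -1.05 and -0.76, and its treated libraries lay above vehicle in M-MDSCs and below it in PMN-MDSCs. P4ha1 with MS-275, at -0.72, also had treated libraries on opposite sides of vehicle in the subsets. Egln3 with CXD101 gave 0.60 and Pdk1 with CXD101 gave -0.61, both near the fold limit. Neutrophil, macrophage, monocyte and eosinophil markers differed between the subsets in the same comparisons, and their part in these values was not tested.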

How the results depend on the processing

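No alternative turned the direction of a called member. With a fold limit of 2, the members called numbered 2 of the 10 for MS-275 and 1 of the 6 for CXD101 in M-MDSCs, 5 of 13 and 2 of 12 in PMN-MDSCs, 6 of 12 for the subsets under vehicle, 4 of 5 for the interaction with MS-275 and 3 of 6 for that with CXD101, and 0 between the drugs in either subset. Between the drugs, 0 were called with no intensity trend in either subset, 0 with no filter on low values in PMN-MDSCs, and 2 with 12 libraries in one model in M-MDSCs, where Eno2 joined Ldhb. With no filter in M-MDSCs, Eno2 was called in place of Ldhb. Against vehicle, Eno2 was called with MS-275 in both subsets, with no filter and with 12 libraries in one model, at 1.29 FPKM or less. Leaving out each library in turn gave 0 to 1 members between the drugs in either subset, with 0 in M-MDSCs without MS-275 library 1 or CXD101 library 2 and 0 in PMN-MDSCs without any treated library. The same omissions gave 9 to 11 and 5 to 7 for the drugs in M-MDSCs, 11 to 13 and 10 to 12 in PMN-MDSCs, 11 to 13 under vehicle, and 5 to 6 and 4 to 7 for the interactions. Same-numbered libraries did not deviate together (r of -0.126 to 0.179 across genes), and with a replicate block the counts were 10, 6, 1, 13, 12, 1, 12, 5 and 6 in the order of the comparisons, the same as without it.

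Over all genes, counts under a fold limit of 2 were 720 in place of 1934 and 261 in place of 901 for MS-275 and CXD101 in M-MDSCs, 1278 in place of 3214 and 854 in place of 2394 in PMN-MDSCs, 1543 in place of 3968 under vehicle and 694 in place of 2115 and 474 in place of 1620 for the interactions. A minimum of 5 FPKM gave 1269 and 591 in M-MDSCs and 268 in place of 487 between the drugs, which was 134 at a fold limit of 2 and 309 and 308 without MS-275 library 1 or 2. Between the drugs in PMN-MDSCs, 90 genes became 4 with no filter, 35 with no trend, 40 at a fold limit of 2, 151 with 12 libraries and 10 to 23 without 1 treated library. Depth is known only in relative terms, and 2 libraries per group limit the precision of every value. The causes of these shifts were not tested.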
